A study of Mus musculus with 10 samples.

Results

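The transcripts described here are 35 genes of rod photoreceptors, several of which cones or other cells also use, measured in RNA from microglia sorted out of the mouse retina. They were taken by name from a list, as 35 of the 55487 genes in the deposited count table. The list was chosen with earlier results of these data known. All 35 had reads in all 10 libraries. Rods are the light-sensing neurons that serve dim light. In the dark they keep a cGMP-gated channel open. A photon activates the G protein transducin, which releases a phosphodiesterase from inhibition, cGMP falls and the channel closes; arrestin, calcium sensors and guanylate cyclases then restore the dark state. The cascade sits in a stack of membrane discs at the outer end of the cell, which rods rebuild continually, while the retinal pigment epithelium takes up shed disc tips. Microglia are the resident phagocytes of the retina and do not run this cascade themselves.

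All mice carried Cx3cr1GFP/+, an allele that puts green fluorescent protein into 1 copy of the fractalkine receptor gene, so that microglia and other myeloid cells fluoresce and every animal, controls included, lacks 1 copy of the receptor. The groups were 4 mice 8 weeks after streptozotocin (8wk STZ), 3 mice 4 weeks after it (4wk STZ) and 3 littermates without it (Control). Streptozotocin is toxic to the beta cells of the pancreas and makes mice diabetic. Each library came from 1 animal, with both of its retinas pooled, dissociated with papain and sorted for live GFP-positive cells. The age of the animals is not given in the sources used here, so time after the drug and age cannot be told apart.

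The sorted material carried the label's cell type. The 18 microglia markers summed to 61203.5 ± 2962 CPM (counts scaled to library size) in 8wk STZ, 64081 ± 3583 CPM in 4wk STZ, against 71414 ± 2803 CPM in Control (SD, n = 4, 3 and 3). By library the sums were 58302 to 64255 CPM in 8wk STZ, 60086 to 67010 CPM in 4wk STZ and 69263 to 74584 CPM in Control. Both STZ groups thus lay below Control in this measure too. Rod and shared photoreceptor RNA was a small part of the same libraries. The 35 transcripts took 0.427 to 0.551% of all reads in the 8wk STZ libraries, 0.605 to 0.876% in 4wk STZ and 1.04 to 1.14% in Control, so the 3 groups did not overlap. The means were 0.470 ± 0.0564% in 8wk STZ, 0.754 ± 0.137% in 4wk STZ and 1.07 ± 0.0572% in Control. Library totals were 33266838 to 62903489 reads, and the fewest reads of any of these transcripts in a library were 105, for Guca1a.

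The promoters of 4 of these genes are shown because rod genes share a regulator, the homeodomain protein CRX, that is itself among the 35. The windows run from 250 bases before to 50 bases after the annotated start (RefSeq, build GRCm38.p6, mouse), 5′ to 3′ on the gene's strand, and capitals mark the CRX core TAATCC on either strand (GGATTA on the other). Cngb1, on the minus strand at chr8:95306536-95306835, and Crx, on the minus strand at chr7:15879906-15880205, each hold 2 cores. Sag, on the plus strand at chr1:87803430-87803729, holds 1 core, and Rom1, on the minus strand at chr19:8929307-8929606, holds 0.
Cngb1: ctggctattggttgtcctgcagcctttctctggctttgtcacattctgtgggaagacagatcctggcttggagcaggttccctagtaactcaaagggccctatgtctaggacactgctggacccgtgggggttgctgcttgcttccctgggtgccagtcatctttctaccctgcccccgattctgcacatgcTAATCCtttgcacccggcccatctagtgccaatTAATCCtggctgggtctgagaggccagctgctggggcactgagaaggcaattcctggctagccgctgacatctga
Crx: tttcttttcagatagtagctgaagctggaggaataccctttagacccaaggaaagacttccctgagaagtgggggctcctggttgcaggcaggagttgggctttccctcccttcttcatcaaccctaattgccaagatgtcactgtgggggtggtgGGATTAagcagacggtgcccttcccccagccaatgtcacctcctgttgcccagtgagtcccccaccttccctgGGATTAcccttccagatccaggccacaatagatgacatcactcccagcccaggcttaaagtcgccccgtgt
Sag: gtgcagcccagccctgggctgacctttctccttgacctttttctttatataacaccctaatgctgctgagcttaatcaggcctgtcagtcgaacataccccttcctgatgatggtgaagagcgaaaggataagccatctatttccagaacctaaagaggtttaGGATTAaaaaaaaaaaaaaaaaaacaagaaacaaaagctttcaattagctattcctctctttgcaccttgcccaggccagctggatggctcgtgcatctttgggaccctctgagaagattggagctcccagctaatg
Rom1: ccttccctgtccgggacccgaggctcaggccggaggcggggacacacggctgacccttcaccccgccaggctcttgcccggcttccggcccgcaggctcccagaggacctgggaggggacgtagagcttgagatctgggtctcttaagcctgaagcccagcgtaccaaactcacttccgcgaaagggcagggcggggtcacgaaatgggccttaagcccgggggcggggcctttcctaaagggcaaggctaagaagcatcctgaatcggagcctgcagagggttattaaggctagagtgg

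Of the 35 genes, 27 have a window in the RefSeq table, 30 windows in all. The CRX core was in 13 of the 27 genes (48.1%), against 8.14% of the 27018 genes with a window in the table. TGCTGA, part of the site that MAF-family leucine zipper proteins such as NRL read, searched on both strands, was in 6 of the 27 (22.2%), against 21.7% of all genes. A match is a string of letters in a window, and neither motif was tested for binding. Cabp4, Gnat1, Guca1b, Pde6a, Pde6g, Rcvrn, Reep6 and Rp1 have no window in that table.

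At 8 weeks nearly the whole set was lower than in Control. Of the 35 transcripts, 30 fell and 0 rose at an adjusted p below 0.05 (edgeR's quasi-likelihood test, Benjamini-Hochberg over all 18957 tested genes), where 1.40% of the tested genes fell in that comparison and 0.971% rose. All 35 fold changes were negative. Their median was −1.41 on the log2 scale (range −1.87 to −0.37), against a median of −0.01 over all tested genes, and 29 of the 35 were at least 2-fold lower. Every 8wk STZ library lay below every Control library for 33 of them, a separation that 7.99% of the tested genes showed. With any 1 library left out, 21 to 30 were called, fewest without Control 2; Gngt1, Pdc, Gucy2f, Guca1a, Fscn2, Rp1, Unc119, Aipl1 and Nr2e3 were the 9 that lost their call in at least 1 such fit, each keeping its direction. With replicate number fitted as a block, 9 of the 35 were still called, and 44 of all tested genes in either direction. What the replicate numbers mark is not stated in the labels. In bulk RNA of this kind, fewer cells of a type and less RNA per cell cannot be told apart. How rod RNA came to be in the sorted microglial material, carried over or engulfed, was not tested.

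**Figure D1:**
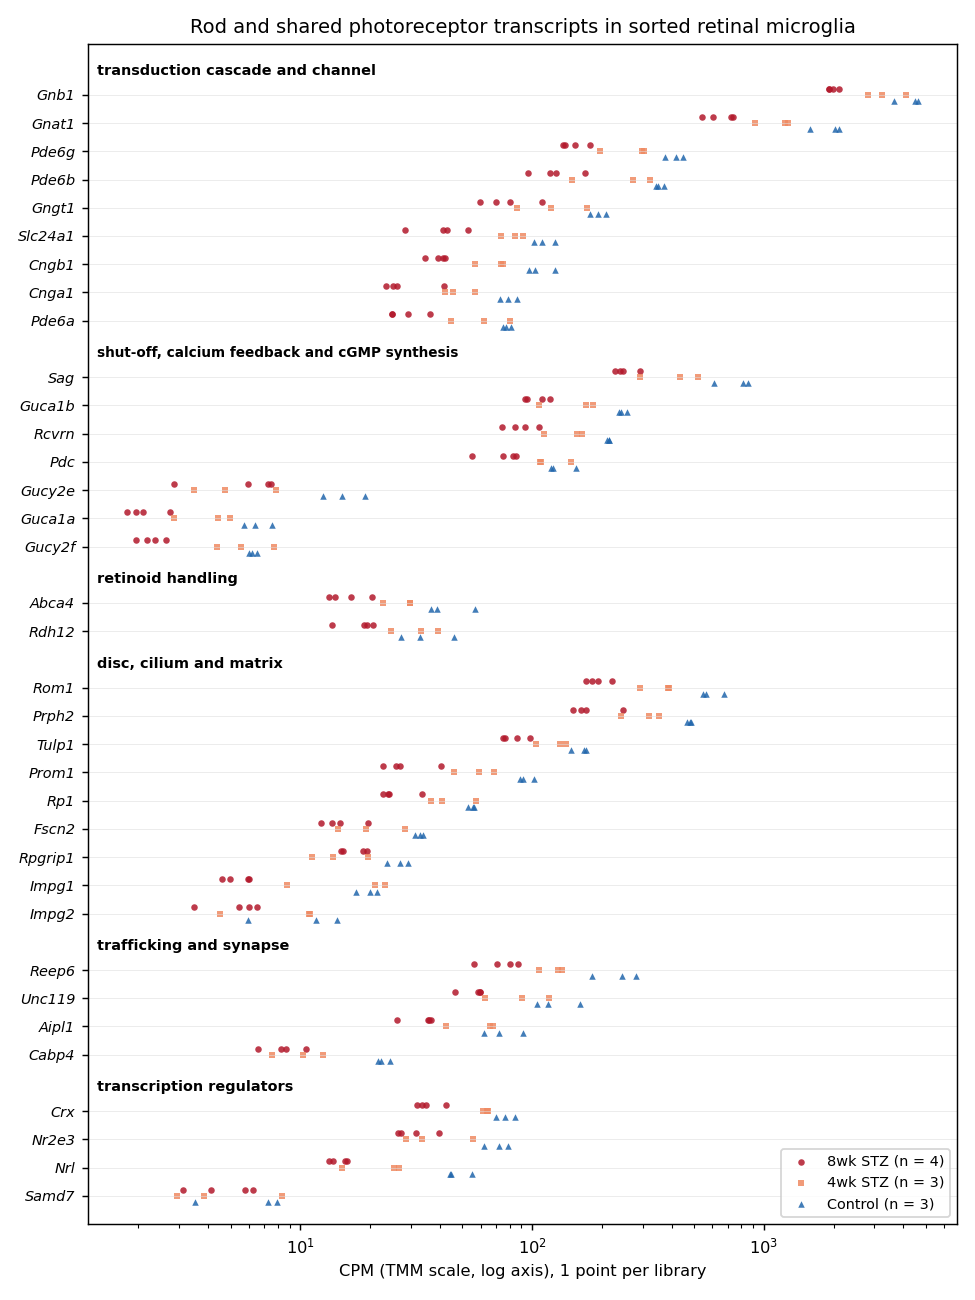
Level of each of the 35 transcripts in each library, in CPM on a log axis, 1 point per library (circles 8wk STZ, n = 4; squares 4wk STZ, n = 3; triangles Control, n = 3), grouped by role. The 8wk STZ circles lie left of all Control triangles for 33 transcripts, and they overlap for Impg2 and Samd7.

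The transduction cascade and its channel were lower throughout, with 9 of 9 members called in 8wk STZ against Control and a median log2 fold change of −1.45. Gnat1 (chr9:107674474-107679712, minus strand, GRCm38) encodes the alpha subunit of rod transducin. It stood at 606, 738, 543 and 724 CPM in the 4 libraries of 8wk STZ, 1266, 914 and 1239 CPM in 4wk STZ and 2118, 2037 and 1587 CPM in Control. None of the 3 groups overlapped for Gnat1, and 8wk STZ was 2.93-fold lower than Control (log2 fold change −1.55 ± 0.152 SE, adjusted p = 0.000926, edgeR). Gnb1 (chr4:155491361-155559269, plus strand) encodes the beta subunit, which many other cell types also use for their own G proteins. It measured 1911, 2109, 1990.5 and 1917 CPM in 8wk STZ, 3247, 2807 and 4121 CPM in 4wk STZ and 3645, 4492 and 4625 CPM in Control. The 8wk STZ libraries lay below all others, while 4wk STZ overlapped Control, and the fall against Control was 2.15-fold (log2 −1.10 ± 0.126 SE, adjusted p = 0.00254, edgeR).

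Pde6g, the inhibitory subunit of the rod phosphodiesterase, was at 136, 179, 153 and 138 CPM in 8wk STZ, 297, 196 and 303 CPM in 4wk STZ and 450, 419 and 374 CPM in Control. Its groups were also separate, and 8wk STZ was 2.73-fold lower than Control (log2 −1.45 ± 0.156 SE, adjusted p = 0.00174, edgeR). The other 6 members of the cascade also fell, with log2 fold changes of −1.27 to −1.48. They are Gngt1, the gamma subunit of rod transducin; Pde6a and Pde6b, the catalytic phosphodiesterase subunits; Cnga1 and Cngb1, the channel subunits; and Slc24a1, the exchanger that carries calcium out of the rod outer segment.

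Genes that end the light response or make cGMP again were called lower in 6 of 7 cases at 8 weeks, with a median log2 fold change of −1.41. Sag (chr1:87803680-87845158, plus strand), whose product arrestin caps the activated visual pigment, was measured at 240.4, 293, 228 and 247 CPM in 8wk STZ, 435, 294 and 518 CPM in 4wk STZ and 609.5, 812 and 854 CPM in Control. Against Control it was 3.01-fold lower in 8wk STZ without overlap (log2 −1.59 ± 0.182 SE, adjusted p = 0.00254, edgeR). Guca1b, a calcium sensor that controls the cyclases, had 95.0, 110.2, 93.4 and 119.5 CPM in 8wk STZ, 171, 107 and 182 CPM in 4wk STZ and 257, 242 and 236 CPM in Control. Rcvrn encodes recoverin, the calcium sensor that restrains the kinase of the visual pigment. Its level was 93.5, 107, 74.5 and 84.3 CPM in 8wk STZ, 156, 113 and 163 CPM in 4wk STZ and 209.9, 214 and 216 CPM in Control. Both sensors fell without overlap with Control, Guca1b 2.35-fold (adjusted p = 0.00541, edgeR) and Rcvrn 2.37-fold (adjusted p = 0.00286, edgeR).

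Pdc encodes phosducin, which binds the beta and gamma subunits of transducin. It had one of the 3 smallest fold changes, at 54.9, 82.9, 85.3 and 74.9 CPM in 8wk STZ, 147, 109 and 108 CPM in 4wk STZ and 154, 123 and 121 CPM in Control. The 8wk STZ libraries were still below all Control libraries and the fall was called (log2 −0.83 ± 0.171 SE, adjusted p = 0.0313, edgeR). The cyclase transcript Gucy2e was not called, although its libraries separated. It read 2.84, 7.22, 7.48 and 5.94 CPM in 8wk STZ, 3.49, 4.72 and 7.84 CPM in 4wk STZ and 19.0, 15.1 and 12.5 CPM in Control. With a log2 fold change of −1.41 its SE was 0.37 and its adjusted p 0.0800 (edgeR). The other cyclase, Gucy2f, and the calcium sensor Guca1a, both at 1.79 to 7.70 CPM in all libraries, fell by 1.45 and 1.61 on the log2 scale in 8wk STZ against Control.

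Retinoid handling was represented by 2 genes, and 1 of them was called. Abca4, the transporter that clears retinal from disc membranes, stood at 13.3, 20.5, 16.5 and 14.2 CPM in 8wk STZ, 29.7, 22.8 and 29.7 CPM in 4wk STZ and 56.6, 36.5 and 39.0 CPM in Control. The groups were separate, and the fall in 8wk STZ against Control was 2.73-fold (adjusted p = 0.00700, edgeR). Rdh12, a dehydrogenase that reduces retinal in photoreceptors, stood at 19.3, 20.6, 13.7 and 18.8 CPM in 8wk STZ, 33.1, 24.6 and 39.1 CPM in 4wk STZ and 27.3, 46.0 and 32.9 CPM in Control. Its 8wk STZ libraries were the lowest, but the adjusted p was 0.0534 (log2 −0.97 ± 0.225 SE, edgeR), just above the threshold.

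**Figure D2:**
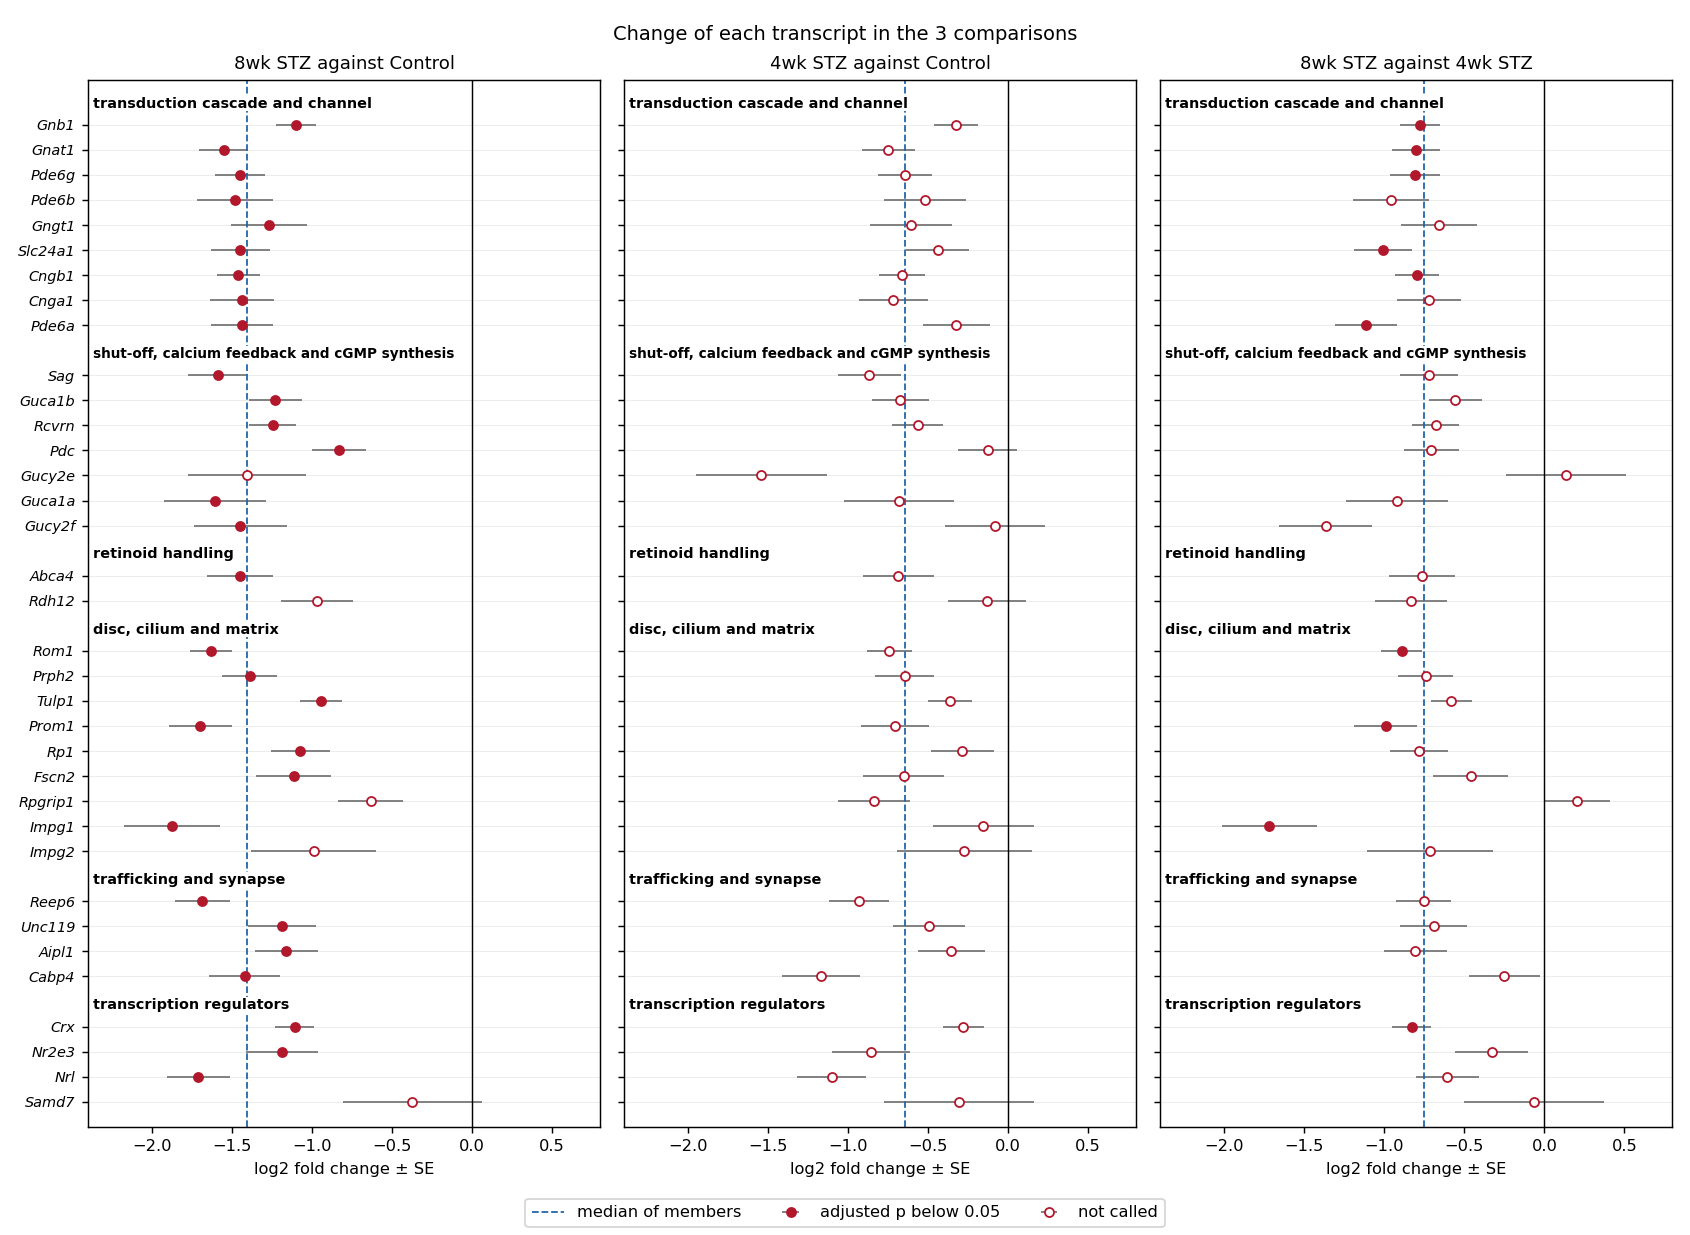
Log2 fold change ± SE (edgeR, all 10 libraries in 1 fit) of each of the 35 transcripts for 8wk STZ over Control, for 4wk STZ over Control and for 8wk STZ over 4wk STZ, with filled points for an adjusted p below 0.05 and a dashed line at the median of the 35. The medians are −1.41, −0.64 and −0.75, with 30, 0 and 10 filled points.

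Disc, cilium and matrix genes were called lower in 7 of 9 cases at 8 weeks, with a median log2 fold change of −1.11. Rom1 (chr19:8927391-8929356, minus strand) and Prph2 encode the tetraspanins that form the rims of the discs. Rom1 was at 171, 222, 181 and 193 CPM in 8wk STZ, 385, 291 and 390 CPM in 4wk STZ and 564, 671 and 548 CPM in Control, with no overlap between any 2 groups. Prph2 was at 170.2, 246, 151 and 162 CPM in 8wk STZ, 320.2, 242 and 353 CPM in 4wk STZ and 465, 481 and 486 CPM in Control. For Prph2, 1 library of 8wk STZ exceeded the lowest of 4wk STZ, and both STZ groups lay below Control. Against Control, Rom1 in 8wk STZ had the smallest adjusted p of the 35 (0.000392, 3.10-fold lower, edgeR), and Prph2 was 2.62-fold lower (adjusted p = 0.00343, edgeR).

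Tulp1 encodes a tubby-like protein needed for transport into the outer segment. It measured 75.2, 97.7, 76.4 and 86.4 CPM in 8wk STZ, 133, 104 and 140.0 CPM in 4wk STZ and 167, 171 and 147 CPM in Control. The groups were separate, with a smaller fall than that of the discs' rim proteins (1.93-fold in 8wk STZ against Control, adjusted p = 0.00589, edgeR); the difference between the falls was not tested. Prom1 encodes prominin, a protein of young disc edges that other cells also make. Its values were 27.0, 40.5, 22.7 and 25.9 CPM in 8wk STZ, 58.7, 46.0 and 68.4 CPM in 4wk STZ and 91.3, 102 and 88.9 CPM in Control. These groups were separate as well, and the fall in 8wk STZ against Control was 3.24-fold (adjusted p = 0.00286, edgeR). Fscn2, an actin bundler of photoreceptors, and Rp1, a microtubule protein of the outer segment axoneme, fell by 1.11 and 1.07 on the log2 scale.

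The proteoglycans Impg1 and Impg2 belong to the matrix around the outer segments; 1 of the pair was called, and the difference between them was not tested. Impg1 (chr9:80313330-80465481, minus strand) stood at 4.58, 5.97, 5.95 and 4.95 CPM in 8wk STZ, 21.0, 8.72 and 23.3 CPM in 4wk STZ and 21.5, 20.0 and 17.4 CPM in Control. Its 8wk STZ libraries were below all others, and its fold change against Control was the largest of the 35 (3.66-fold lower, log2 −1.87 ± 0.299 SE, adjusted p = 0.0113, edgeR). Impg2 stood at 6.01, 5.43, 3.48 and 6.51 CPM in 8wk STZ, 11.0, 4.52 and 10.9 CPM in 4wk STZ and 14.4, 11.7 and 5.92 CPM in Control. Here 1 Control library fell within the 8wk STZ range, and the change was not called (log2 −0.99 ± 0.390 SE, adjusted p = 0.243, edgeR).

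Rpgrip1 encodes a scaffold of the connecting cilium, the narrow bridge to the outer segment. It was at 15.3, 19.4, 18.7 and 15.0 CPM in 8wk STZ, 11.2, 13.8 and 19.5 CPM in 4wk STZ and 23.6, 27.0 and 29.0 CPM in Control. Both STZ groups were below Control without overlap, yet the change in 8wk STZ was not called (log2 −0.63 ± 0.205 SE, adjusted p = 0.147, edgeR). Of its exonic bases, 8.70% lie opposite exons of Supt16, a more abundant chromatin factor gene (15611 reads over all libraries, against 9392 for Rpgrip1). The kit does not mark strand, so reads from that stretch cannot be assigned to either gene.

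Trafficking and synaptic genes were called lower in 4 of 4 cases, with a median log2 fold change of −1.30 in 8wk STZ against Control. Reep6, a membrane-shaping protein of the rod endoplasmic reticulum, was at 70.4, 86.6, 56.2 and 80.3 CPM in 8wk STZ, 135, 108 and 129 CPM in 4wk STZ and 245, 281 and 182 CPM in Control. Unc119, a lipid-binding carrier that moves transducin, was at 59.8, 59.6, 46.5 and 58.7 CPM in 8wk STZ, 90.7, 62.6 and 119 CPM in 4wk STZ and 118, 161 and 105 CPM in Control. Reep6 separated all 3 groups and was 3.21-fold lower in 8wk STZ than in Control (adjusted p = 0.00150, edgeR), whereas 4wk STZ overlapped Control for Unc119, which was 2.28-fold lower in 8wk STZ (adjusted p = 0.0170, edgeR). Aipl1, the chaperone of the phosphodiesterase, and Cabp4, a calcium-binding protein of the photoreceptor terminal, fell by 1.16 and 1.42 on the log2 scale.

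Transcription regulators of rods were present at lower levels, and 3 of 4 were called lower at 8 weeks (median log2 fold change −1.15). Nrl (chr14:55518978-55524981, minus strand) encodes the leucine zipper protein that sets rod fate. It stood at 15.9, 15.7, 13.3 and 13.9 CPM in 8wk STZ, 26.5, 15.2 and 25.3 CPM in 4wk STZ and 44.4, 54.8 and 44.8 CPM in Control. Both STZ groups were below Control, and 8wk STZ was 3.27-fold lower (log2 −1.71 ± 0.197 SE, adjusted p = 0.00261, edgeR), which with Impg1 and Prom1 made up the 3 largest falls. Crx (chr7:15865947-15879968, minus strand) was at 31.8, 42.4, 33.6 and 34.9 CPM in 8wk STZ, 64.8, 63.8 and 61.4 CPM in 4wk STZ and 84.2, 69.9 and 76.6 CPM in Control. Its 3 groups were separate, with a fall of 2.15-fold in 8wk STZ against Control (adjusted p = 0.00174, edgeR).

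Nr2e3, a nuclear receptor that holds cone genes down in rods, was at 31.6, 39.6, 26.3 and 27.3 CPM in 8wk STZ, 33.4, 28.7 and 55.6 CPM in 4wk STZ and 72.1, 78.6 and 62.2 CPM in Control. Both STZ groups lay below Control and overlapped each other, and 8wk STZ was 2.27-fold lower than Control (adjusted p = 0.0232, edgeR). Samd7, which works with Polycomb proteins to silence genes in rods, was at 6.23, 3.11, 4.12 and 5.76 CPM in 8wk STZ, 3.84, 2.94 and 8.33 CPM in 4wk STZ and 7.89, 7.27 and 3.52 CPM in Control. All groups overlapped for Samd7, and its change was the smallest of the 35 (log2 −0.37 ± 0.434 SE, adjusted p = 0.789, edgeR).

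At 4 weeks, 0 of the 35 transcripts passed the same test against Control, and 0.00% of all tested genes did. At an unadjusted p below 0.05 there were 22 of the 35 and 1849 of all tested genes. DESeq2 called 13 of the 35 lower, edgeR's likelihood ratio test 10 and limma-voom 0. All 35 fold changes were negative, with a median of −0.64 on the log2 scale and a range of −1.54 (Gucy2e) to −0.08 (Gucy2f). All 4wk STZ libraries were below all Control libraries for 24 of the 35, against 6.25% of the tested genes. Among the highest expressed, Gnat1 changed by −0.75 ± 0.163 SE (adjusted p = 0.252, edgeR) and Gnb1 by −0.33 ± 0.135 SE (adjusted p = 0.476, edgeR). The 4wk STZ and 8wk STZ comparisons use the same 3 Control libraries.

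Between the STZ groups, 10 of the 35 transcripts were lower at 8 weeks than at 4 weeks and 0 were higher, against 0.522% of tested genes lower and 0.396% higher. They were 6 of the 9 cascade members (Gnat1, Gnb1, Pde6a, Pde6g, Cngb1 and Slc24a1), 3 disc and matrix genes (Rom1, Prom1 and Impg1) and the regulator Crx. Impg1 changed by −1.72 ± 0.299 SE (adjusted p = 0.0318, edgeR) and Rom1 by −0.89 ± 0.129 SE (adjusted p = 0.0181, edgeR). The median of the 35 was −0.75, and 33 were negative. The exceptions were Gucy2e (0.14 ± 0.375 SE) and Rpgrip1 (0.20 ± 0.208 SE), neither of them called, and these were also the 2 whose 4wk STZ mean did not lie between those of 8wk STZ and Control. All 8wk STZ libraries were below all 4wk STZ libraries for 23 of the 35, against 6.97% of the tested genes. The count of 10 depended on single libraries. Without 8wk STZ 1, 8wk STZ 3, 8wk STZ 4 or 4wk STZ 3 it was 0, without 4wk STZ 1 it was 3, without Control 2 it was 4, and without Control 1 or 8wk STZ 2 it was 6. DESeq2 and edgeR's likelihood ratio test each called 25 of the 35.

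Within each STZ group, single libraries were high or low for most of the transcripts. Of the 35, 4wk STZ 2 had the lowest value in its group for 30, 4wk STZ 3 the highest for 23, and 8wk STZ 2 the highest in its group for 24. No Control library was the highest for most: Control 1, Control 2 and Control 3 were the highest for 13, 12 and 10 of the 35. They were the lowest for 14, 3 and 18, so Control 3 was the lowest for slightly more than the rest together. The median coefficient of variation over the 35 was 18.1% in 8wk STZ, 24.5% in 4wk STZ and 10.7% in Control. Transcripts of 1 library share their source and are not replicates.

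The shares of the roles among these reads differed less between groups than the sum of the 35 did. The shares were not tested. Cascade and channel genes made up 69.5 ± 1.13% of the reads of the 35 in 8wk STZ, 70.5 ± 1.10% in 4wk STZ and 67.6 ± 0.626% in Control. By library that share was 69.3 to 71.2% in 4wk STZ and 67.2 to 68.4% in Control, without overlap. In 8wk STZ it was 68.0 to 70.7%, which overlapped Control. Shut-off, calcium feedback and cGMP synthesis genes made up 11.8 ± 0.202% in 8wk STZ, 11.0 ± 0.695% in 4wk STZ and 12.4 ± 0.630% in Control. Disc, cilium and matrix genes made up 12.3 ± 0.862% in 8wk STZ, 12.4 ± 0.421% in 4wk STZ and 13.3 ± 0.480% in Control. Transcription regulators made up 1.91 ± 0.0940% in 8wk STZ, 1.70 ± 0.0892% in 4wk STZ and 1.82 ± 0.146% in Control. Gnb1 alone took 44.1 ± 2.57% in 8wk STZ, 44.1 ± 2.56% in 4wk STZ and 38.3 ± 3.61% in Control. Without Gnb1, an alternative added after the values were seen, the summed level was 2529.7 ± 336 CPM in 8wk STZ, 4314 ± 851 CPM in 4wk STZ, against 6847 ± 392 CPM in Control, with the groups in the same order. For 29 of the 35, the log2 fold change in 8wk STZ against Control lay within 2 SE of the median. Outside it were Gnb1, Pdc, Tulp1, Rpgrip1, Crx and Samd7, all with smaller falls than the median.

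Per kilobase of exon, the levels of the 35 spanned a 1302-fold range in Control, in a similar order in all groups. The highest 10 were the same genes in 8wk STZ, 4wk STZ and Control, and no transcript moved by more than 3 places between 8wk STZ and Control. Gnb1 led with 464 ± 21.6 CPM per kb in 8wk STZ, 795 ± 157 CPM per kb in 4wk STZ, against 997 ± 125 CPM per kb in Control. Gnat1 followed with 215 ± 31.1 CPM per kb in 8wk STZ, 376 ± 64.7 CPM per kb in 4wk STZ, against 632 ± 94.4 CPM per kb in Control, then Rom1 with 126 ± 14.7, 234 ± 36.6 and 392 ± 44.0 CPM per kb in the same groups. Rcvrn, Pde6g, Prph2, Guca1b, Reep6, Sag and Pde6b completed the first 10 in Control. Of the 34 pairs of neighbours in the Control order, 20 overlapped between libraries and are not ranked by these data.

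**Figure D3:**
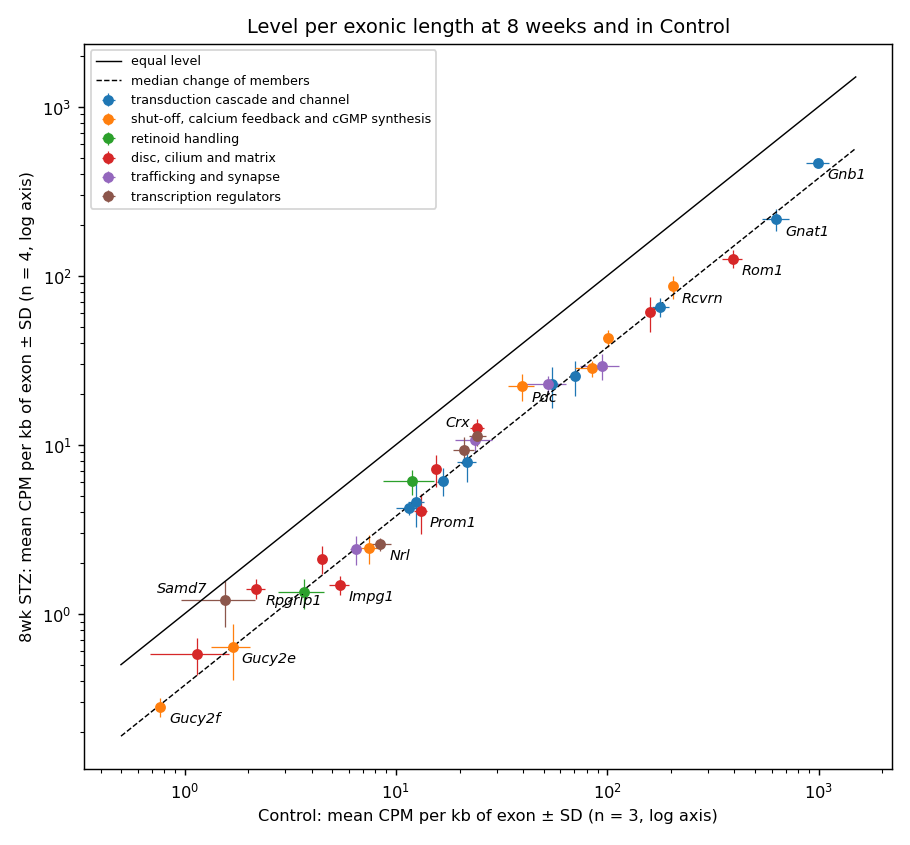
Mean level of each of the 35 transcripts per kilobase of exon in 8wk STZ (vertical, n = 4) against Control (horizontal, n = 3), both log axes, bars ± SD, coloured by role. The solid line marks equal levels and the dashed line the median change of −1.41 on the log2 scale. For 29 of the 35 the log2 fold change is within 2 of its SE (not drawn) of that median. For Gnb1, Pdc, Tulp1, Rpgrip1, Crx and Samd7 it is more than 2 SE above the median.

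Other photoreceptor genes were tested as a separate list. Of 30 listed, 16 fell in 8wk STZ against Control and 0 rose, with 29 negative fold changes, a median of −1.30 on the log2 scale and 1 positive value, not called (Spata7, 0.56 ± 0.344 SE, adjusted p = 0.504, edgeR). The difference between this list and the 35 was not tested. Rbp3, which carries retinoids between photoreceptors and pigment epithelium, stood at 95.2 ± 21.7 CPM in 8wk STZ, 207 ± 33.8 CPM in 4wk STZ, against 301 ± 34.3 CPM in Control (log2 −1.66 ± 0.175 SE at 8 weeks, adjusted p = 0.00153, edgeR). Elovl4, which makes very long fatty acids, fell by 1.30 on the log2 scale. At 4 weeks 0 of the 30 were called, with a median of −0.34, and between the STZ groups 3 were lower at 8 weeks, Rbp3 and Elovl4 among them.

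Cone markers were not called in either direction. Of 14 listed, 13 were tested and 0 passed in any of the 3 comparisons. In 8wk STZ against Control their median log2 fold change was 0.24, with 6 of the 13 negative, from −1.05 ± 0.336 SE for Thrb to 0.93 ± 0.471 SE for Rxrg. They summed to 199 to 303 CPM in 8wk STZ, 217 to 281 CPM in 4wk STZ and 219 to 243 CPM in Control, and Cnga3 had no read in 4wk STZ. Most of that sum was Gngt2, the gamma subunit of cone transducin, at 183 ± 29.5 CPM in 8wk STZ, 148 ± 9.23 CPM in 4wk STZ, against 153 ± 16.9 CPM in Control. Gnat2, of the same list, was at 8.47 ± 5.26 CPM in 8wk STZ, 7.72 ± 3.24 CPM in 4wk STZ, against 7.17 ± 3.56 CPM in Control. Whether the Gngt2 reads came from cones was not tested, so the sum is not a measure of cone RNA alone. The cone pigment gene Opn1sw varied widely, at 16.4 ± 14.8 CPM in 8wk STZ, 29.6 ± 16.9 CPM in 4wk STZ, against 10.1 ± 2.90 CPM in Control. The difference between cone and rod lists was not tested.

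Most markers of inner retinal neurons were lower at 8 weeks than in Control, but few were called. The 12 bipolar cell markers summed to 17.4 to 44.2 CPM in 8wk STZ, 72.3 to 81.6 CPM in 4wk STZ and 54.2 to 110.4 CPM in Control; all 12 fold changes against Control were negative and 0 were called (Prkca, a kinase of rod bipolar cells, −0.91, adjusted p = 0.198, edgeR). Of 17 tested amacrine, horizontal and ganglion cell markers, 3 fell at 8 weeks: Snap25 and Syt1, of the synaptic release machinery, and Nefl, a neurofilament. In all, 12 of the 17 fold changes were negative, with a median of −0.65 and a range of −3.30 (Calb1) to 1.35 (Onecut2), both ends not called. Their list summed to 79.1 to 109.5 CPM in 8wk STZ, 178 to 198 CPM in 4wk STZ and 197 to 209.5 CPM in Control, so 8wk STZ lay below both other groups. Snap25 (46.3 ± 7.40 CPM in 8wk STZ, 108 ± 2.68 CPM in Control) and Syt1 (15.1 ± 1.64 and 34.5 ± 3.34 CPM) together made up most of that sum. The cell types that these reads came from were not tested. Onecut1 had no read in 4wk STZ, and Chat none in Control.

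Müller glia are the radial glia that span the retina. Of their 14 markers 3 fell at 8 weeks (Slc1a3, Clu and Abca8a), and 0 rose. In all, 12 of the 14 fold changes against Control were negative, with a median of −0.68 on the log2 scale. Their sum, 6059 to 20224.5 CPM in 8wk STZ, 3690.1 to 6490.2 CPM in 4wk STZ and 2956 to 5954 CPM in Control, was mostly Apoe, which microglia also express. Without Apoe the 13 others summed to 887 ± 142 CPM in 8wk STZ, 1337 ± 85.7 CPM in 4wk STZ, against 1355 ± 264 CPM in Control.

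Pigment epithelium markers were low, with 6 of 10 tested and 0 called. They summed to 10.7 to 74.9 CPM in 8wk STZ, 8.83 to 13.6 CPM in 4wk STZ and 7.38 to 14.6 CPM in Control, where Lrat and Tyrp1 had no read. Best1, a chloride channel, and Rgr, a retinal-binding receptor, were the highest of these on average, with log2 fold changes at 8 weeks of 0.32 ± 0.338 SE (adjusted p = 0.766, edgeR) and 2.75 ± 1.63 SE (adjusted p = 0.482, edgeR). The list reached 74.9 CPM in 8wk STZ 3 and 10.7 to 15.8 CPM in the other libraries of that group. Of 18 microglia markers, 5 fell (Tmem119, Csf1r, Fcrls and P2ry13 among them) and 1 rose (Siglech) at 8 weeks, with a median log2 fold change of −0.28. The part that the neuronal, glial and microglial differences play in the rod values was not tested.

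**Figure D4:**
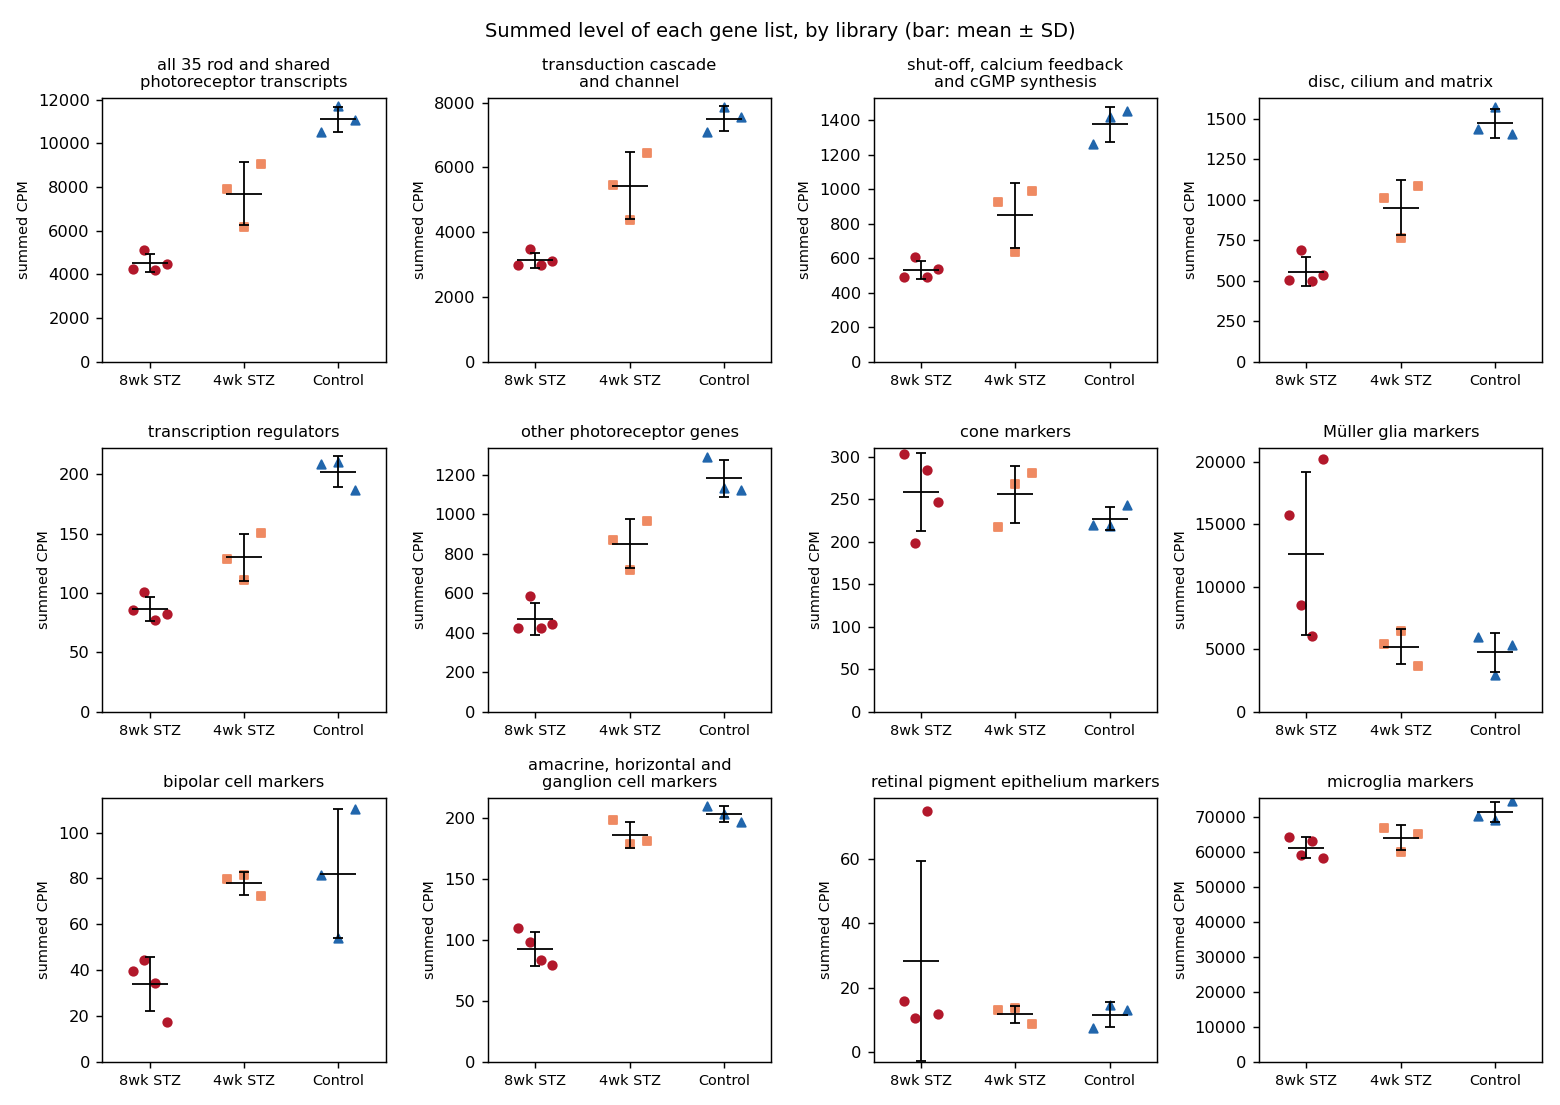
Summed level in CPM of the 35 transcripts, of 4 of their roles and of 7 lists of other genes, 1 point per library, with bars at the mean ± SD (8wk STZ n = 4, 4wk STZ n = 3, Control n = 3). The 35 sum to 4512 ± 406 CPM in 8wk STZ, 7706 ± 1466 CPM in 4wk STZ, against 11101 ± 588 CPM in Control. The cone sums overlap and are mostly Gngt2. Apoe makes up most of the Müller glia sum, and 1 library of 8wk STZ lifts the pigment epithelium sum.

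In the authors' deposited table, all 35 transcripts were present. At an FDR below 0.05, that table lists 32 of them as lower in 8wk STZ than in Control and 11 as lower in 4wk STZ, with 0 higher in either. Of the 14475 genes in the authors' deposited table, 7.29% passed that FDR in 8wk STZ against Control and 0.801% in 4wk STZ, lower and higher genes together.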

How the data were processed

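RNA of sorted retinal microglia was copied with the SMARTer Ultra Low kit and read in pairs on a NovaSeq, per the labels' protocols. Per the submitters' processing notes, the tools included STAR, featureCounts, Salmon, limma and edgeR, with build GRCm38; annotation release, strand setting and multimapping are not given in these sources. One deposited table gives whole-number read counts for every gene and library, per the file headers. A second table holds the authors' own comparisons of each STZ group with Control, with log2 fold changes, likelihood ratio scores and p-values, per the file headers. It was used only to give the authors' calls. Of the numeric columns, 1 (transcripts per gene) was not used.

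The count table has 55774 entries, 287 of which repeat an identifier. Of 55487 genes, 19211 had no read. Counts were scaled by TMM and filtered with filterByExpr by group. The 18957 genes left, all 35 described here among them, were fitted with edgeR 4.0.16 in R 4.3.3 over all 10 libraries, 1 mean per group (7 residual degrees of freedom, biological coefficient of variation 0.564). Contrasts used the quasi-likelihood F-test with robust dispersion, p-values were adjusted over all genes by Benjamini-Hochberg, and genes under 0.05 were called. The procedure was tested on simulated data. CPM are on the TMM scale, given as mean ± SD over a group's libraries. Positions and exonic lengths come from GENCODE vM21 (GRCm38).

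The 35 genes and the lists of other genes were chosen with earlier results of these data known. Values in every library are given for the highest expressed genes of each role, for those not called at 8 weeks and for the 3 largest and 3 smallest fold changes; for other lists, up to 3 called genes, or else the 2 highest expressed. Some genes that this rule takes from the other lists are not reported here. Alternatives were other filters, scalings and tests (DESeq2 1.42.0, limma-voom 3.58.1, edgeR's likelihood ratio test), only the groups compared, replicate number as a block and leaving out libraries. No libraries of a group were alike enough to be 1 library deposited again (chi-square over degrees of freedom at least 48.2). Counts carry no molecular identifiers, so amplified reads are not independent molecules.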

Additional observations from a re-analysis of the deposited data

Results flagged for a closer look

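In a group of 4 libraries, a value stands apart when its gap to the nearest is large against the group's range. Chance flags about 1 in 20 such groups, and 4 of 42 were flagged. Cnga1 was at 41.8 CPM in 8wk STZ 2, against 23.5 to 26.2 CPM in the other libraries of that group, and Rp1 at 33.6 CPM in the same library, against 22.6 to 24.2 CPM. Unc119 was at 46.5 CPM in 8wk STZ 3, against 58.7 to 59.8 CPM, and Aipl1 at 26.2 CPM in that library, against 35.5 to 36.5 CPM. Both libraries of 8wk STZ lay below all Control libraries for these 4 genes.

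For 10 transcripts the change against the shared Control libraries differed between 8 and 4 weeks, by the test of the difference itself (8wk STZ against 4wk STZ, edgeR's quasi-likelihood test with Benjamini-Hochberg adjustment over all genes). The log2 differences were −0.80 for Gnat1, −0.78 for Gnb1, −1.11 for Pde6a, −0.81 for Pde6g, −0.80 for Cngb1 and −1.01 for Slc24a1 in the cascade. They were −0.89 for Rom1, −0.99 for Prom1 and −1.72 for Impg1 among disc and matrix genes, and −0.83 for Crx. Adjusted p-values ran from 0.0181 to 0.0480 (edgeR). None of the 10 was called without 8wk STZ 1, 8wk STZ 3, 8wk STZ 4 or 4wk STZ 3. For Impg1, 4wk STZ 2 was at 8.72 CPM and the other 4wk STZ libraries at 21.0 and 23.3 CPM, while the 8wk STZ libraries were at 4.58 to 5.97 CPM.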

How the results depend on the processing

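No alternative called any of the 35 transcripts higher. For 8wk STZ against Control, leaving out 1 library gave 21 to 30 calls, with 21 transcripts called in all 10 such fits, and the other settings gave 9 to 33. For 4wk STZ against Control, leaving out 1 library gave 0 calls; without a filter there were 3, with DESeq2 13 and with edgeR's likelihood ratio test 10. For 8wk STZ against 4wk STZ, leaving out 1 library gave 0 to 9 calls. In that comparison there were 18 without a filter, 25 with DESeq2, 25 with the likelihood ratio test, 4 with only the 2 groups fitted and 0 without Control 3 and 4wk STZ 3 together. The cause was not tested.

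With replicate number as a block, 9 transcripts were called in 8wk STZ against Control and 0 in 8wk STZ against 4wk STZ. Deviations from the group mean correlated at −0.0503 to 0.0869 between libraries that share a number and at −0.102 to 0.0852 between the others. Such correlations cannot decide whether the numbers mark a shared litter or day, which the labels do not state. Median log2 fold changes over single-library omissions were −1.46 to −1.31 for 8wk STZ against Control, −0.75 to −0.45 for 4wk STZ against Control and −0.89 to −0.67 for 8wk STZ against 4wk STZ.

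Sign changes under these alternatives touched 7 values, none of them called. Leaving out 1 library, 4wk STZ against Control ran from −0.29 to 0.10 for Rdh12, −0.33 to 0.093 for Gucy2f, −0.40 to 0.17 for Impg1 and −0.56 to 0.041 for Impg2. Likewise, 8wk STZ against 4wk STZ ran from −0.34 to 0.50 for Samd7, −0.51 to 0.0067 for Nr2e3 and −0.094 to 0.51 for Gucy2e. For 8wk STZ against 4wk STZ, Samd7 was at 0.019 with library totals as the only scaling, 0.13 with limma-voom and 0.50 without Control 3 and 4wk STZ 3 together, and Nr2e3 at 0.0060 under that last setting. Groups of 3 and 4 animals limit the precision, most for the low transcripts Gucy2e, Impg2 and Samd7, with SE of 0.370, 0.390 and 0.434 in 8wk STZ against Control.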
